A study of Mus musculus with 12 samples.

Results

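Tumor was compared with normal intestine in mice labelled Dnmt+/- and Min/+. These mice were heterozygous at a DNA methyltransferase gene and carried the Min allele of Apc. The members were the 6 arrays with that genotype label, 3 of tumor and 3 of normal intestine, out of 12 arrays in the series. The other 6 arrays, 3 of tumor and 3 of normal intestine, were labelled Dnmt+/+ and also carried Min/+. In both genotypes 1 tumor array and 1 normal array belonged to each of the diets numbered 1, 2 and 3, so tumor was set against normal within diet. All tissue came from male mice 91 days old, and every group carried the Min allele, so no comparison with mice lacking it was possible. Which Dnmt gene was altered is not numbered in the labels, which also do not say what the diets held or from which segment of intestine the samples came. They also do not say whether an array stood for 1 animal or 1 tumor, or whether a pair came from the same mouse. The p-values below therefore measure the spread between these 3 pairs, part of which may be technical.

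Apc holds the Wnt pathway in check, and loss of the normal Apc copy in a cell of a Min/+ mouse lets beta-catenin accumulate and an adenoma grow, mostly in the small intestine. DNA methyltransferases add methyl groups to cytosine where it precedes guanine (CpG). Dnmt1 copies that pattern to the new strand after DNA replication, and a reduced dose of Dnmt1 is known to lower the number of polyps in Min mice.

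RNA was hybridised to Affymetrix MG_U74Av2 arrays, which report 1 intensity per probe set, a group of short probes for a transcript. Values below are intensities after quantile normalization over all 12 arrays, and a difference is log2 tumor minus log2 normal, the mean of the 3 within-diet differences with its limma standard error. After dim features were removed and 1 probe set was kept per gene, 6401 features were tested, of which 5649 had a gene name. The mean deposited intensity was 305 and 301 on the 2 Dnmt+/- arrays of diet #1, and 45.8% and 44.5% of their probe sets carried the value 50, a floor in the file. The 4 other Dnmt+/- arrays had means between 983 and 989 and no such floor. A second floor of 44.8 was set on normalized values. Where arrays lay at either floor the fold depends on that floor, and their number is given for many of these genes. On the Dnmt+/- arrays of diet #1, a normalized 48.9 in normal tissue and 47.4 in tumor stand for the file floor. With 3 pairs, the number of arrays sets the precision.

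The labelled tissue was checked against marker genes. The 8 measured markers of intestinal epithelium, among them villin and keratins, summed to between 69517 and 92398 on the normal arrays and between 107273 and 120093 on the tumor arrays, so both tissues read as gut epithelium. Markers of exocrine pancreas summed to 166535 on the diet #2 normal array and to between 2908 and 5098 on the 5 others. The 6 measured pancreas genes, including trypsin, elastase and colipase genes, read between 18919 and 41936 there, and that array also had the lowest epithelial sum. Mast cell markers were the set most unlike between tissues, with sums of 397 to 631 on normal arrays and 16892 to 23844 on tumor arrays. The 4 measured adipocyte markers ran the other way, with sums from 827 to 1531 on normal arrays and from 292 to 379 on tumor arrays. Fibroblast markers lay between 5878 and 6918 on normal and between 10067 and 11152 on tumor arrays. Smooth muscle, endothelial and B cell sums overlapped between tissues. Within diet, the B and plasma cell sum was lower in tumor each time, at 35804 against 37848, 25966.5 against 30193 and 25182 against 28034.5. Ighm and Jchain made up most of that sum. In diet #3 its other 2 genes were higher in tumor, Cd79a at 943 against 193 and Cd79b at 1042 against 158. The enteric nerve sum was also lower in tumor within each diet, at 1771 against 1970, 522 against 697 and 614 against 786. Of its 3 genes only Stmn2 was lower each time. Uchl1 was higher in tumor in diet #1 (586 against 424) and Vip in diet #2 (159 against 139). Smooth muscle and endothelial sums changed direction between diets. In bulk tissue, fewer cells of a type and less RNA per cell cannot be told apart.

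**Figure D1:**
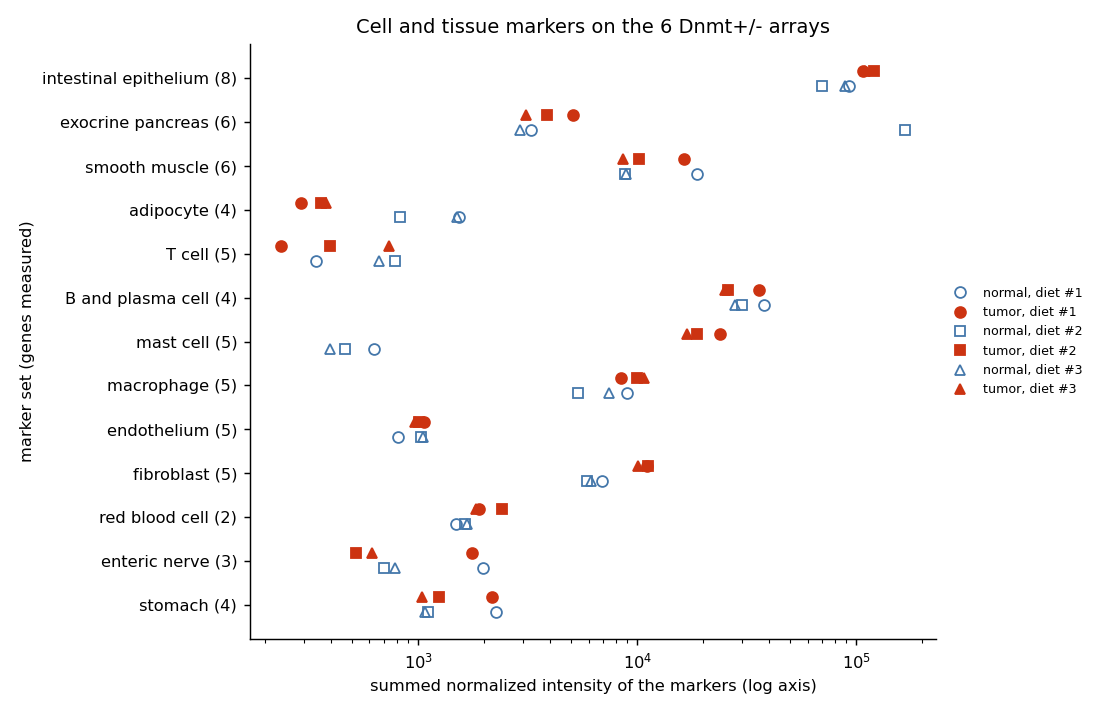
Summed normalized intensity (log axis) of 13 sets of cell and tissue markers on the 6 Dnmt+/- arrays; the number after each name counts the genes measured. Open blue symbols are normal and filled red symbols tumor arrays, with circles for diet #1, squares for diet #2 and triangles for diet #3. Mast cell sums are higher and adipocyte sums lower on all 3 tumor arrays, and the pancreas sum of the diet #2 normal array is 166535 against at most 5098 elsewhere.

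The genotype label was first set against Dnmt1. On the deposited scale the Dnmt+/- normal array read 611.71 against 776.4 in Dnmt+/+ in diet #2 and 491 against 688 in diet #3, which is 78.8% and 71.4%. The Dnmt+/- tumor array read 69.2% of the Dnmt+/+ value in diet #2 and 56.0% in diet #3. In diet #1 Dnmt1 was at the file floor on 3 of 4 arrays, and the Dnmt+/+ tumor array read 251.5. Within Dnmt+/- the Dnmt1 difference between tumor and normal was 0.38 ± 0.20 (SE, n = 3 pairs; limma adjusted p = 0.312). Dnmt3a was too dim to be tested, and the annotation named no probe set for Dnmt3b. Apc itself differed by 0.69 ± 0.49 (limma adjusted p = 0.418), with 1 normal array at a floor.

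Tumors of Dnmt+/- mice carried more transcript of mast cell proteases, the bile acid carrier Fabp6, keratins, a laminin chain and annexins, and less transcript of some enzymes for making and releasing glucose, some detoxifying enzymes and the gut hormones Cck and Gip. Of 6401 features, 153 passed limma at an adjusted p under 0.05, which is 2.39%, with 90 higher (1.41%) and 63 lower (0.984%) in tumor. All 153 changed at least 2-fold and moved the same way in all 3 diets, and 130 carried a gene name. Direction alone was less selective: 24.5% of all features were higher in tumor in all 3 diets, 24.8% were lower in all 3, and in 21.9% the 3 tumor values did not overlap the 3 normal values. The median feature differed by 0.0026. With so small a share of features called, a count of 0 or 1 in a gene list below says little about that list.

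The number of calls varied widely with the pairs included. Without the diet #1 pair 190 features passed, and without the diet #2 or the diet #3 pair 0 passed, with 1023 and 834 features at an unadjusted p under 0.05 against 1651 in the full comparison. Those fits left 2 pairs each. All 153 features kept their direction in each of these fits, which was fixed in advance, because each moved the same way in all 3 diets. When the Dnmt+/+ pairs were allowed to share the estimate of the spread, 868 features (13.6%) passed in Dnmt+/-, 436 higher (6.81%) and 432 lower (6.75%), among them 148 of the 153. Median scaling gave 176 higher and 315 lower, and deposited values without normalization gave 234 higher and 143 lower, so another scaling moved the share of increases among the calls from 58.8% to 35.8% or 62.1%.

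**Figure D2:**
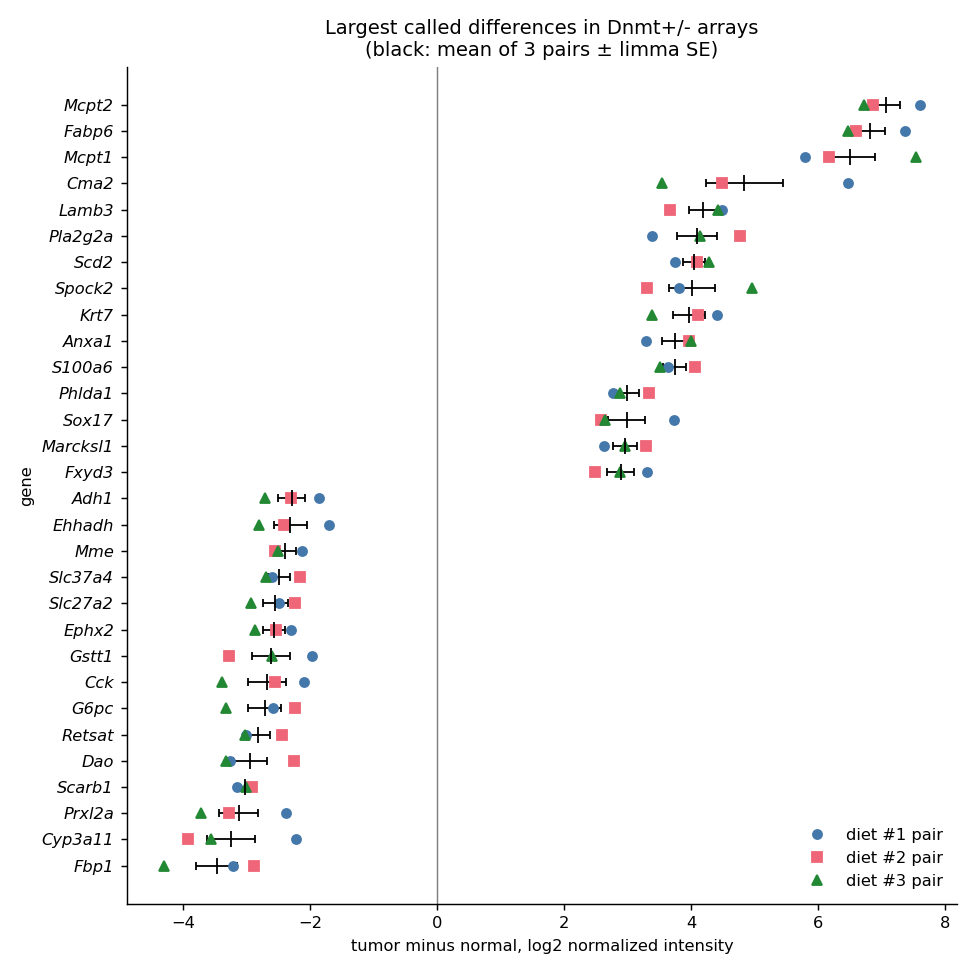
Within-diet differences (log2 tumor minus normal, horizontal axis) of the 15 largest increases and 15 largest decreases among features with a gene name that passed limma in Dnmt+/- and had at most 1 array of each tissue at a floor. Blue circles are diet #1, red squares diet #2 and green triangles diet #3, and black ticks with bars are the mean of the 3 pairs ± limma SE. Every point of an increase lies to the right of 0 and every point of a decrease to the left, from 7.07 for Mcpt2 to -3.47 for Fbp1.

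Mast cell proteases and Fabp6 stood at the top of the increases. Mcpt2, a chymase-like protease of mucosal mast cells, read 48.9, 74.0 and 73.4 on the normal arrays of diets #1, #2 and #3, and 9516, 8644 and 7779.9 on the tumor arrays. All 3 tumors were thus more than 100-fold above their own normal intestine, and 1 normal array was at the floor. The difference was 7.07 ± 0.23, or 134-fold (SE, n = 3 pairs; limma adjusted p = 0.0153). Mcpt1, its neighbour in the same protease family, read 235, 130.4 and 44.8 on normal and 13079, 9411 and 8360 on tumor arrays. The normal arrays differed among themselves, from a clear signal in diet #1 to the floor in diet #3, while the tumors lay within 2-fold of each other. Its difference was 6.51 ± 0.39 (limma adjusted p = 0.0238), and a second Mcpt1 probe set gave 5.86.

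Of the 9 mast cell genes tested, 4 rose, 0 fell, and 8 were higher in all 3 diets, against 1.41% and 24.5% of all features. The median of the 9 was 2.08, against 0.0026 over all features. The array held 15, and Fcer1a, Ms4a2, Mcpt4, Tpsab1, Mcpt8 and Hdc were too dim to be tested. Genes near the floor in normal tissue, such as Mcpt2 and Cpa3, passed that filter through their tumor values. The counts and the median are therefore no test of the list. Cma2, a mast cell chymase, rose by 4.84 ± 0.61 (limma adjusted p = 0.0478), with differences of 6.47, 4.50 and 3.54 in diets #1, #2 and #3, the widest span among the features that passed. The diet #1 normal array read 48.9, the file floor, so the 6.47 and the span depend on that floor. Cpa3, the carboxypeptidase of mast cell granules, rose by 3.13 ± 0.22 (limma adjusted p = 0.0244). Its normal arrays read 48.9, 60.8 and 44.8, 2 of them at a floor, and its tumor arrays 602, 417 and 359, and a floor at the 40th percentile lowered the difference to 2.16. A second Cpa3 probe set gave 1.73 and did not pass (limma adjusted p = 0.221 with every probe set kept). Kit, the receptor for the mast cell growth factor, read 249, 153 and 189 on normal and 488, 258 and 260.2 on tumor arrays, a difference of 0.73 (limma adjusted p = 0.108). Gata2, a transcription factor of mast cells and other blood cells, gave -0.0025.

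Fabp6 binds bile acids inside enterocytes of the ileum. It read 48.9, 142 and 127 on normal arrays and 8107, 13774 and 11309 on tumor arrays. The lowest tumor value was more than 50 times the highest normal value. The difference was 6.82 ± 0.24, or 113-fold (SE, n = 3 pairs; limma adjusted p = 0.0153), with 1 normal array at the floor. Of the 6 genes of ileal bile acid handling that were tested, Fabp6 alone passed. Slc51a, a subunit of the transporter that exports bile acids from enterocytes to blood, read 2391, 2636 and 2836 on normal and 3028, 4463 and 5222 on tumor arrays (0.66 ± 0.18, limma adjusted p = 0.127). Nr1h4, the bile acid receptor that drives transcription of Fabp6, gave -0.04 ± 0.16. Gata4, a transcription factor of proximal small intestine, gave -1.11 ± 0.33 (limma adjusted p = 0.140). Several genes here and below were chosen after their values were seen, namely Kit, Gata2, Nr1h4, Gata4, Anxa3, Krt8, Krt19, Krt20, Lama3, Itgb4, Prom1, Reg1, Cyp3a25, Akr1b8, Gstm5, Alb and Mgp, and Scarb1 in the comparison of genotypes.

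The altered gene encodes an enzyme that acts at CpG, so the promoters of the strongest changes are shown with each CpG in capitals. They are the RefSeq entries (build GRCm38.p6), from 250 bases before to 50 bases after the start, of the 2 largest increases and 2 largest decreases that have exactly 1 promoter entry, read 5′ to 3′ along the gene. Fabp6 lies on the minus strand at chr11:43601513-43601812 and holds 3 CpG. Mcpt1 lies on the plus strand at chr14:56017714-56018013 and holds 2. Fbp1, the gluconeogenic enzyme described below, lies on the minus strand at chr13:62888233-62888532 and holds 6. Cyp3a11, a cytochrome P450, lies on the minus strand at chr5:145879805-145880104 and holds 2.
Fabp6: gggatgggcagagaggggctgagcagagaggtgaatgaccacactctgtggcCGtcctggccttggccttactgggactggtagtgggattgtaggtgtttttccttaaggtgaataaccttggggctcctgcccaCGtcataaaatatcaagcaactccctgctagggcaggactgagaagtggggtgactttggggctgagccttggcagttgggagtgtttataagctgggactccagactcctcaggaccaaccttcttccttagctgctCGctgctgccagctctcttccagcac
Mcpt1: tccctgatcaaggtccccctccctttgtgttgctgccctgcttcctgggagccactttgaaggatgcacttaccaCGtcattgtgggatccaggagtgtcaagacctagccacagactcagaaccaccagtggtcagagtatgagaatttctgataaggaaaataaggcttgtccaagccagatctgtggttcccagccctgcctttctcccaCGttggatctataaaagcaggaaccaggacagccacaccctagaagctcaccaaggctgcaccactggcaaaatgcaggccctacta
Fbp1: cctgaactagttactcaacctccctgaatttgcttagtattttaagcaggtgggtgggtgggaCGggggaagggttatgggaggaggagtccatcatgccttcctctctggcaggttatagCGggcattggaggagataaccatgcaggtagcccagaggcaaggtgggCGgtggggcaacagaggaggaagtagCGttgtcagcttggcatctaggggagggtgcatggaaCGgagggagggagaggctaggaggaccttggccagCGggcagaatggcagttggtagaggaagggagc
Cyp3a11: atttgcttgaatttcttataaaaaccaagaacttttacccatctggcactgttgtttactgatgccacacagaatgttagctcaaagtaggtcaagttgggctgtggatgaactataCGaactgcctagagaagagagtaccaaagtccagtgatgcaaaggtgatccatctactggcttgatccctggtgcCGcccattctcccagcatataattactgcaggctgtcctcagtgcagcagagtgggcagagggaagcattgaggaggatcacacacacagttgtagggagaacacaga

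The 59 genes that rose and had a promoter entry held a median of 7 CpG per 300 bases (quartiles 4 and 20.5), and the 44 that fell held a median of 8 (quartiles 5 and 17.75). The 4548 named genes tested that had an entry held a median of 21 (quartiles 13 and 28). Over all 32851 entries, from 27025 genes tested or not, the median was 7 (quartiles 3 and 20), and 94.6% held at least 1 CpG. Changed genes thus held fewer CpG than the tested genes as a whole, and their medians were near that over all entries. In the medians over genes, counts for genes with several entries are their mean. The median over all entries counts each entry once, so it is not a median over genes. The letters CG were the only motif counted, and the count is the same on both strands. Methylation itself was not measured, and the counts describe sequence only.

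Of 16 epithelial genes known from fetal and regenerating intestine, 6 rose, 0 fell and 15 were higher in all 3 diets, against 24.5% of all features. Their median was 2.06. When the spread was shared with the Dnmt+/+ pairs, 14 passed upward, against 6.81% of all features. Msln, Ccn1 and Ccn2 of that list were too dim to be tested. Members dim in normal tissue, such as Lamb3, passed that filter through their tumor values, and the list was written with earlier results known. The counts and the median are therefore no test of the list. S100a6, a calcium-binding protein, read 1415, 1286 and 1298 on normal and 17643, 21602 and 14847 on tumor arrays. All tumor values were more than 10-fold above all normal values, and the normal arrays were close to one another. The difference was 3.74 ± 0.18 (SE, n = 3 pairs; limma adjusted p = 0.0213). Anxa1, an annexin that binds membranes in the presence of calcium, rose by 3.75 ± 0.21 (limma adjusted p = 0.0236), and its other 2 probe sets gave 2.18 and 4.03. Anxa3, of the same family, rose by 2.12, and Plaur, the receptor for urokinase, by 1.87, with 1 normal array at the floor for Plaur. Clu, a secreted chaperone of regenerating crypts, read 321, 1210.4 and 216 on normal arrays and 4729, 3812 and 3233 on tumor arrays. The diet #2 normal array, the one with the pancreas signal, was the high one, and Clu differed by 3.15 ± 0.53 without passing (limma adjusted p = 0.0669).

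Some keratins and proteins that anchor epithelium to its basement membrane rose. Krt7, a keratin of ductal epithelia, read 177, 405 and 485 on normal and 3788, 7002 and 5051 on tumor arrays, so even the lowest tumor was above the highest normal array by a wide margin. It rose by 3.97 ± 0.25, or 15.7-fold (limma adjusted p = 0.0244). Krt18 rose by 2.45 and Krt19 by 1.19, while Krt8, the partner of Krt18 in simple epithelia, gave 0.87 (limma adjusted p = 0.0699) and Krt20, a keratin of mature villus cells, 0.14. Lamb3, a chain of laminin-332, read 48.9, 161 and 70.4 on normal and 1103, 2048 and 1511 on tumor arrays. It rose by 4.20 ± 0.23 (limma adjusted p = 0.0235), with 1 normal array at a floor. A second Lamb3 probe set gave 2.43 and did not pass (limma adjusted p = 0.189 with every probe set kept). Lama3, another chain of the same laminin, gave 2.78 (limma adjusted p = 0.0635), and Itgb4, an integrin chain that binds it, rose by 1.38. Of the 26 laminins, integrins and keratins tested, 5 rose, 0 fell and 13 were higher in all 3 diets.

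Among 26 junction and adhesion genes 3 rose and 0 fell, and 18 were higher in all 3 diets. Cdh1, the cadherin of epithelium, gave 0.08, and Cldn3, of tight junctions, 0.46. The tight junction gene Cldn4 rose by 2.16 ± 0.23, from 1484, 510.3 and 808 on normal to 6707, 3145 and 2612 on tumor arrays (limma adjusted p = 0.0368). The tetraspanin gene Cd9 and the surface glycoprotein gene Cd24a rose by 2.04 and 1.49. Prom1, a membrane protein of crypt base cells, rose from 808, 1389 and 953 to 3956, 4576 and 3553, a difference of 1.97 ± 0.18 (limma adjusted p = 0.0318). The actin crosslinker Actn1 rose by 1.18.

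**Figure D3:**
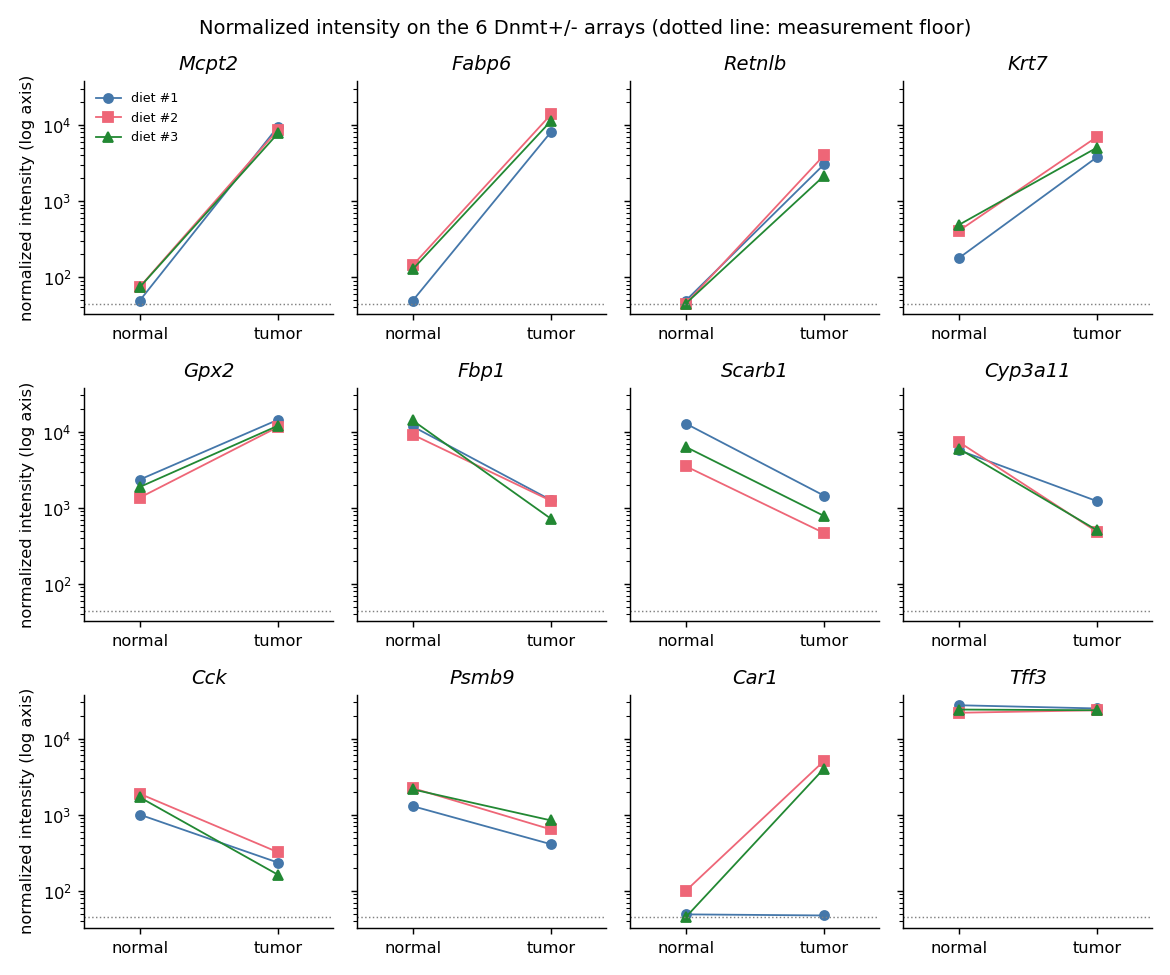
Normalized intensity (log axis) of 12 genes on the 6 Dnmt+/- arrays, with a line from normal to tumor within each diet (blue circles diet #1, red squares diet #2, green triangles diet #3) and a dotted line at the measurement floor of 44.8. The first 5 genes rise and the next 5 fall in every diet, Car1 is high only in the tumors of diets #2 and #3, and Tff3 lies between 21831 and 27424 on all arrays.

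Retnlb, a defence protein of goblet cells, read 48.9, 44.8 and 44.8 on normal arrays, all 3 at a floor, and 3038, 4011 and 2147 on tumor arrays. It rose by 6.01 ± 0.23 (limma adjusted p = 0.0153), a size set by the floors: it was 4.88 with a floor at the 40th percentile and 6.51 with one at the 5th. Fam151a and Bpifb1, a secreted protein of mucosal surfaces, were at a floor on all 3 normal arrays too and rose by 3.63 ± 0.35 and 3.24 ± 0.33 (limma adjusted p = 0.0329 and 0.0341). With a floor at the 40th percentile the differences were 2.51 and 2.11. Foxa1, a transcription factor of secretory cells, rose by 2.06 ± 0.16, from 469, 199 and 217 to 1631, 914 and 978 (limma adjusted p = 0.0267). Tff3, the trefoil peptide that goblet cells secrete with mucus, read between 21831 and 27424 on all 6 arrays (-0.02 ± 0.15). Clca1, a secreted protein of goblet cells, gave 0.72 (limma adjusted p = 0.128). Of 17 goblet cell genes, 2 rose and 0 fell, and the median was 0.35.

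Pla2g2a, a secretory phospholipase of Paneth cells, read 339, 123 and 201 on normal and 3533, 3355 and 3542 on tumor arrays. The tumors were nearly equal and the groups lay far apart (4.10 ± 0.31, limma adjusted p = 0.0244). It was the only 1 of 7 Paneth cell genes to pass, and the lysozyme gene Lyz2 gave 0.48. In the Reg family of secreted lectins, Reg3g rose by 2.88 ± 0.26 (limma adjusted p = 0.0318) with the same difference of 2.88 on a second probe set, and Reg3b gave 1.60 (limma adjusted p = 0.0965). Reg1 gave 0.42, -5.38 and -3.55 in diets #1, #2 and #3, so its pairs disagreed in sign. Reg1 is also a product of pancreas, and the diet #2 normal array, where its value was 24884, carried the pancreas signal. In diet #3, where Reg1 read 9643 on the normal and 826 on the tumor array, the pancreas sum of the normal array was 2908. The part of the pancreas signal in the diet #2 value of Reg1 was not tested.

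Gpx2, a glutathione peroxidase of crypts and a Wnt target, read 2346, 1358 and 1877 on normal and 14397, 11559 and 12017 on tumor arrays. Every tumor was more than 6-fold above its own normal array, and Gpx2 rose by 2.80 ± 0.17 (limma adjusted p = 0.0238). It was the only 1 of 17 Wnt targets to pass, and 8 of the 17 were higher in all 3 diets, with a median of 0.64. Of all features, 1.41% passed upward and 24.5% were higher in all 3 diets. The array held 26 Wnt targets, and those too dim to be tested included Axin2, Lgr5, Cd44 and Prox1. The counts therefore leave out much of the Wnt response. Ccnd1, a cyclin that drives cells into the cycle, gave 1.33 ± 0.18 and did not pass (limma adjusted p = 0.0509), and a second Ccnd1 probe set gave 0.51 (limma adjusted p = 0.245 with every probe set kept). Mmp7, a matrix protease and Wnt target, gave 2.17 ± 0.39 (limma adjusted p = 0.0753). Myc gave 1.31 and 1.52 in diets #2 and #3 and was at a floor on both diet #1 arrays. None of the 12 genes of the pathway itself that were tested, of 26 on the array, passed. Ctnnb1, which encodes beta-catenin, gave 0.39 ± 0.15 (limma adjusted p = 0.204).

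Of the genes of cell division and protein synthesis tested, few passed, and of all features only 1.41% passed upward and 0.984% downward. Counts of 0 or 1 in lists of this length therefore say little about them. Of 27 genes of G2 and mitosis, 1 rose, 23 were higher in all 3 diets, against 24.5% of all features, and the median was 0.80. Cks1b, a cofactor of cyclin-dependent kinases, was the one that rose, from 452, 345 and 352 to 1413, 1024 and 789 (1.46 ± 0.17, limma adjusted p = 0.0420). Cdk1, the mitotic kinase, gave 1.23 (limma adjusted p = 0.0784) and Mki67, a marker of cycling cells, 0.68 (limma adjusted p = 0.130), while a second Mki67 probe set gave -0.17. Of 23 genes of DNA replication, 0 passed and 9 were higher in all 3 diets, with a median of 0.37. The helicase subunit gene Mcm2 gave 0.62 and Pcna, the sliding clamp, 0.50. Of 26 nucleolar genes 0 passed, 20 were higher in all 3 diets and the median was 0.71. Ncl and Npm1, abundant nucleolar proteins, gave 0.88 and 0.93. For 21 cytosolic ribosomal proteins, 0 passed, 16 were higher in all 3 diets and the median was 0.39. Rps3 gave 0.49 and Rps4x 0.10. Chaperones had 1 called of 28, Hspa1a, an inducible heat shock protein (1.66 ± 0.20, limma adjusted p = 0.0429), with 22 of 28 higher in all 3 diets. Its close copy Hspa1b gave 1.85 (limma adjusted p = 0.0630) and Hspa8 0.49, and probe sets may not separate Hspa1a from Hspa1b. Hspa1a and Hspa1b each had 1 normal array at a floor. Of 29 proteasome genes 0 passed and the median was 0.26, with -0.09 for Psma1 and 0.32 for Psmb5. With the spread shared with Dnmt+/+ pairs, 12 of the mitotic, 11 of the nucleolar, 3 of the ribosomal and 10 of the chaperone genes passed upward, and none of these 4 lists had a gene that passed downward. In that fit 6.81% of all features passed upward and 6.75% downward.

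Genes for handling sugar had the lowest median of the 57 gene lists. Of 9 genes of sugar uptake and gluconeogenesis, 3 fell, 0 rose and 7 were lower in all 3 diets, with a median of -2.49. Fbp1, which commits carbon to gluconeogenesis, read 11772, 9186 and 14111 on normal and 1263, 1237 and 718 on tumor arrays. Each tumor lay more than 7-fold under its own normal array, with no overlap. Fbp1 fell by 3.47 ± 0.32 on the log2 scale, or 11.1-fold (limma adjusted p = 0.0318). G6pc, the catalytic subunit that releases free glucose, fell by 2.72 ± 0.26, and Slc37a4, which carries its substrate into the endoplasmic reticulum, by 2.49 ± 0.18 (limma adjusted p = 0.0327 and 0.0244). Slc2a5, the fructose transporter, read 4134, 2475 and 3496 on normal and 1069, 253 and 204 on tumor arrays. The groups did not overlap, but the 3 differences of -1.95, -3.29 and -4.10 were far apart, and Slc2a5 did not pass (-3.11 ± 0.45, limma adjusted p = 0.0564). Slc5a1, the sodium-coupled glucose transporter, gave -1.41 (limma adjusted p = 0.0889).

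In glycolysis 2 of 17 genes rose and 0 fell. Hk2, the hexokinase induced in many tumors, read 195, 218 and 264 on normal and 802, 1450.5 and 1134 on tumor arrays (2.29 ± 0.21, limma adjusted p = 0.0318). Slc2a1, the glucose transporter of many dividing cells, rose by 2.60 ± 0.31 (limma adjusted p = 0.0439) with 2 normal arrays at a floor. It did not pass on deposited values, without the block or with the floor at the 5th percentile. Ldha, which turns pyruvate into lactate, read between 19024 and 22094 on all arrays and gave -0.09. The median of the 17 was 0.14.

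Among genes of lipid uptake and fat oxidation, 3 fell and 0 rose. Scarb1, a receptor for high-density lipoprotein, read 12840.4, 3530 and 6339 on normal and 1446, 467 and 782 on tumor arrays. Diets differed in level in both tissues, yet the 3 differences of -3.15, -2.92 and -3.02 were almost the same. Scarb1 fell by 3.03 ± 0.15 (limma adjusted p = 0.0213). It did not pass without the diet block. Slc27a2, a fatty acid transporter and acyl-CoA synthetase, fell by 2.55 ± 0.20 (limma adjusted p = 0.0260). These were the 2 of 17 genes of lipid absorption that passed, and 10 were lower in all 3 diets. Fabp2, an abundant fatty acid carrier, gave -0.18, 1.34 and -0.17 in diets #1, #2 and #3, and the apolipoprotein gene Apoa4 gave -0.53 (limma adjusted p = 0.272). Of 26 genes of fat oxidation, 1 fell and 22 were lower in all 3 diets, against 24.8% of all features, with a median of -0.71. The one was Ehhadh, a peroxisomal enzyme (-2.31 ± 0.26, limma adjusted p = 0.0402), and Ppara, the receptor that controls many of them, gave -0.68. Of 44 subunits of oxidative phosphorylation 0 passed, 36 were lower in all 3 diets and the median was -0.41. With the shared spread 8 passed downward and 0 upward, against 6.75% and 6.81% of all features. Sdha gave -1.05 (limma adjusted p = 0.0762) and Ndufa2 -0.06. Scd2, which makes monounsaturated fatty acids, went the other way, from 608, 414 and 456 to 8193, 7055 and 8895 (4.04 ± 0.18, limma adjusted p = 0.0204). Its second probe set gave 1.98.

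Among detoxifying enzymes 7 fell and 0 rose. Of 23 genes of cytochrome P450 and phase I metabolism, 4 fell, 0 rose and 16 were lower in all 3 diets, with a median of -1.01. Cyp3a11 read 5743, 7372 and 6017 on normal and 1223, 484 and 507 on tumor arrays. The diet #1 tumor was the highest of the 3, and no tumor value reached a normal one. It fell by 3.24 ± 0.38 (limma adjusted p = 0.0416). Cyp3a25, its relative, fell by 2.09, the soluble epoxide hydrolase gene Ephx2 by 2.57 and the alcohol dehydrogenase gene Adh1 by 2.29. Cyp2b10 gave -1.81 (limma adjusted p = 0.0842). Akr1b8, an aldose reductase relative, went the other way, with differences of 5.02, 1.65 and 2.54 and 1 normal array at a floor (3.07 ± 0.71, limma adjusted p = 0.105). Cyp3a genes are close in sequence, and a probe set may read more than 1 of them. Among 29 phase II genes 3 fell: the glutathione transferase genes Gstt1 (-2.62) and Gstm3 (-1.98), and Abcc2 (-1.79), an export pump for conjugates. A second Gstm3 probe set gave -1.01 and did not pass. Gstm1 gave -0.37, Gsta2 -1.51 and -1.45 in diets #2 and #3 with both diet #1 arrays at a floor, and Gstm5 0.79 (limma adjusted p = 0.108). With the shared spread, Akr1b8 and Gstm5 passed upward. Retsat, which saturates retinol, fell by 2.83 ± 0.19, from 2048, 1433 and 2004 to 253, 264 and 246 (limma adjusted p = 0.0244). Stra6, a retinol uptake receptor, rose by 2.19 ± 0.15 with all 3 normal arrays at a floor (limma adjusted p = 0.0244), a size that was 1.06 with the higher floor. It was the only 1 of 9 genes of retinoid handling to pass, and Rbp2 and Rdh7, which bind and oxidise retinol, gave -0.47 and -1.71.

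Single enzymes outside those groups fell as well. Dao, which breaks down D-amino acids, fell by 2.95 ± 0.27, from 2463, 2068 and 3767 to 258, 431 and 377 (limma adjusted p = 0.0318). Mme, a peptidase of the cell surface, was 1879, 1867 and 1894 on normal and 430.4, 319 and 333 on tumor arrays. The normal arrays were nearly identical, and Mme fell by 2.39 ± 0.17 (limma adjusted p = 0.0244). Of 17 genes of amino acid breakdown and the urea cycle 1 fell, Dao, with -1.01 for Otc and -0.35 for Cps1. Prxl2a, a redox protein, fell by 3.13 ± 0.31 (limma adjusted p = 0.0329), but its second probe set gave only -0.45. Gsr, which regenerates reduced glutathione, rose by 1.47 ± 0.15 (limma adjusted p = 0.0358), while Gpx1 gave -0.19. The brush border protein villin (Vil1) gave -0.11 and lactase (Lct) -1.17 (limma adjusted p = 0.103), and 0 of 12 brush border genes passed.

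The hormone genes Cck and Gip fell. Cck, made by I cells of the upper small intestine, read 1003, 1886 and 1696 on normal and 234, 321 and 162 on tumor arrays. The groups were well apart, and Cck fell by 2.68 ± 0.29 (limma adjusted p = 0.0378). Gip, the product of K cells, read 2719.6, 2341 and 2793 on normal and 795, 698 and 503 on tumor arrays (3.99-fold lower, limma adjusted p = 0.0368). Chga, a granule protein of most endocrine cells, gave -0.71 and -1.24 in diets #2 and #3 and was at a floor on both diet #1 arrays. Of 13 enteroendocrine genes, 2 fell, 0 rose and 9 were lower in all 3 diets, with a median of -1.01.

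Among 19 transcription factors of gut epithelium, Foxa1 rose, as above, and Hnf4g fell. Hnf4g, which drives enterocyte genes, read 453, 415 and 655 on normal and 169.9, 131 and 185 on tumor arrays (-1.63 ± 0.16, limma adjusted p = 0.0334). The intestinal homeobox gene Cdx1 gave 0.36 ± 0.26, and Hnf4a gave 0.15 ± 0.22. Sox17, a factor of endoderm and endothelium, rose by 2.99 ± 0.29, from 48.9, 111.5 and 109 to 649.6, 668 and 683 (limma adjusted p = 0.0329). For Sox17 1 normal array was at a floor, and a second probe set gave 2.48. Phlda1, a protein of crypt cells, rose by 3.00 ± 0.18, from 171, 188 and 185 to 1158, 1900 and 1369 (limma adjusted p = 0.0238). Marcksl1, an actin-binding protein, rose by 2.96 ± 0.19, and Fxyd3, a regulator of the sodium pump, by 2.89 ± 0.21.

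Of 30 genes of fibroblasts and matrix, 1 rose, 21 were higher in all 3 diets and the median was 0.65. Col1a1, a chain of type I collagen, was the one that rose, from 693, 602 and 556 to 1983, 2387 and 2005 (1.79 ± 0.17, limma adjusted p = 0.0325), while its second probe set gave 0.86. Col3a1, the collagen of reticular fibres, gave 0.69 (limma adjusted p = 0.110). Spock2, a matrix proteoglycan, rose by 4.02 ± 0.36 (limma adjusted p = 0.0318), with 1 normal array at the floor and differences of 3.81, 3.30 and 4.95. Serpina3n, a protease inhibitor, rose by 1.58 ± 0.20 (limma adjusted p = 0.0478), but did not pass with the spread shared with Dnmt+/+ (limma adjusted p = 0.113). Of 24 matrix proteases and inhibitors, Plaur and Serpina3n rose, 0 fell, 15 were higher in all 3 diets and the median was 1.01, and Mmp10 gave 1.01 (limma adjusted p = 0.0841). Igfbp4, which binds insulin-like growth factors, rose by 1.80 ± 0.19 (limma adjusted p = 0.0367), and a second probe set gave 0.67.

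Of 12 genes of MHC class I and peptide loading, 2 fell, 0 rose and 11 were lower in all 3 diets, with a median of -0.67. Psmb9, a subunit of the immunoproteasome, read 1295, 2235 and 2152 on normal and 409, 639 and 839.8 on tumor arrays. No tumor value reached the lowest normal value, and Psmb9 fell by 1.61 ± 0.17 (limma adjusted p = 0.0359). H2-Q1, a nonclassical class I gene, fell by 1.48 ± 0.15 (limma adjusted p = 0.0338), and probe sets for class I genes may read several of them. Psmb9 and H2-Q1 did not pass without the diet block. B2m, the light chain shared by class I molecules, gave -0.45 (limma adjusted p = 0.163), and the heavy chain gene H2-K1 -0.49 (limma adjusted p = 0.139). Of 30 interferon response genes, 1 rose, 2 fell and 18 were lower in all 3 diets, with a median of -0.49. Ifi35 fell by 1.56 ± 0.16, and Ifitm3, which blocks virus entry, rose by 1.68 ± 0.16 (limma adjusted p = 0.0336 and 0.0329). The interferon regulatory factors Irf7 and Irf1 gave -0.65 and -0.27. Of 9 MHC class II genes 0 passed, and the invariant chain gene Cd74 read between 7196 and 12939 on all arrays while H2-Ab1 gave -0.48. T cell markers summed to between 344 and 786 on normal arrays and between 237 and 734 on tumor arrays, and all of Cd3e, Cd3d, Cd3g and Cd8a were too dim to be tested. Of 17 genes of T and NK cells 0 passed, with -0.98 for Cd4 and -1.06 for Cd7, each with 1 tumor array at a floor. Of 15 B and plasma cell genes 0 passed, with -0.22 for Jchain and -0.17 for Ighm. The median of the 15 was 0.21, with 2 higher and 5 lower in all 3 diets, against 24.5% and 24.8% of all features. The part of T, NK and B cells in the class I and interferon values was not tested.

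Among genes of inflammation and complement, Il1rn, the natural blocker of the interleukin-1 receptor, rose by 2.53 ± 0.23, from 229.9, 121 and 189 to 1105, 1012 and 902 (limma adjusted p = 0.0318). It was the only 1 of 20 myeloid genes to pass, and Saa3, an acute phase protein, gave 3.39 ± 0.68 with 2 normal arrays at a floor (limma adjusted p = 0.0875). Of 22 chemokines, interleukins and their receptors 0 passed. Ccl25, which draws lymphocytes to small intestine, gave -1.27 (limma adjusted p = 0.0509) and Ccl11 0.21. Cfi, the protease that inactivates complement C3b, read 48.9, 118 and 44.8 on normal and 1599, 1696 and 1749.7 on tumor arrays. The 3 tumors were within 1.1-fold of each other, and Cfi rose by 4.72 ± 0.33 with 2 normal arrays at a floor (limma adjusted p = 0.0244). C1qa, a macrophage product of the same cascade, gave -0.09. Car3, a carbonic anhydrase of fat cells, fell by 2.30 ± 0.24 with 2 tumor arrays at a floor (limma adjusted p = 0.0359), beside the lower adipocyte sum given above, and Adipoq, a hormone of fat cells, gave -2.01 (limma adjusted p = 0.106). Of 17 adipose genes tested, Car3 alone passed, and the median was -0.20. In all 3 diets 3 of the 17 were higher and 7 lower, against 24.5% and 24.8% of all features. The part of fat tissue in the Car3 value was not tested.

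Genes close to methylation were examined because of the genotype. Of 25 genes of DNA methylation and chromatin, 1 rose, 13 were higher in all 3 diets and the median was 0.33. Nap1l1, a histone chaperone, was the one that rose, from 193, 342 and 376 to 414, 826 and 1050 (1.28 ± 0.16, limma adjusted p = 0.0465). Uhrf1, which brings Dnmt1 to newly copied DNA, gave 0.90 ± 0.20 (limma adjusted p = 0.0962). Of 19 imprinted genes, Slc38a4, an amino acid transporter expressed from the paternal copy, alone passed, with 2 normal arrays at a floor (3.59 ± 0.25, limma adjusted p = 0.0244). It was also 3.98 higher in Dnmt+/+ tumors. Igf2, the imprinted growth factor, gave -0.20, and Cdkn1c, an imprinted inhibitor of the cell cycle, 0.52. The germline genes Tnp1 and Odf1 gave 0.30 and -0.33. Of 15 folate genes 0 passed. Slc46a1, the folate transporter of the upper gut, gave -1.18, -4.11 and -2.96 in diets #1, #2 and #3 (limma adjusted p = 0.0965), and the folate receptor gene Folr1 gave -0.18.

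In the remaining lists few genes passed, against 2.39% of all features, so counts of 0 or 1 say little about a list. Of 11 Eph receptors and ephrins 0 passed, with 0.64 for Ephb3, whose diets gave -0.94, 1.88 and 0.98, and -0.51 for Ephb6. Of 6 genes of the EGF family 0 passed: Ereg, a ligand, gave 2.08 with 1 normal array at a floor (limma adjusted p = 0.0598), and Egfr, the receptor, gave -0.03. Of 11 prostaglandin genes 1 rose, the phospholipase gene Pla2g2a, and 0 fell, with -0.84 for Hpgd, which degrades prostaglandins, and 0.18 for Ptges, which makes one. Of 27 genes of TGF-beta, BMP and IGF signalling 1 rose, namely Igfbp4, with -0.19 for Bmp4 and 0.18 for Tgfb3. Of 22 immediate early genes 0 passed, with 0.37 for Fos and 0.73 for Egr1, the latter with both diet #1 arrays at a floor. Of 18 genes of polyamines, iron and metallothioneins 0 passed, with 0.11 for Odc1 and 1.18 for Srm, both enzymes of polyamine synthesis. Of 15 endothelial genes 0 passed, with 0.12 for Pecam1 and 1.38 for Cdh5 (limma adjusted p = 0.0965). The diet #1 normal array was at a floor for both genes, and the diet #1 tumor array for Pecam1. Of 19 genes of smooth muscle and enteric nerve 1 rose, Actn1, with -0.14 and 0.17 for the muscle actins Acta2 and Actg2. Of 6 red blood cell genes 0 passed, with 0.08 for Hbb-b2 and 0.36 for Hba-a1. Of 6 stomach genes 1 rose, Anxa10, with 0.22 for Tff1. Tff2 read 13124 on the diet #2 normal array, the one with the pancreas signal, and between 44.8 and 227 on the others. Of 8 colon markers 0 passed, with 1.46 for Car4 (limma adjusted p = 0.0889), whose second probe set gave -0.47. Car2 gave 0.08, -3.26 and -0.43 in diets #1, #2 and #3.

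Other genes named here also had further probe sets. Those bright enough to be tested gave 4.24 for Clu, 2.76 for Reg3b, 0.73 for Col3a1, -1.18 for Chga, 0.96 and 1.66 for Actn1, and 1.37 for Nap1l1. They gave 1.19 for Egfr, -0.07 for Psmb5, -0.03 for Gstm1, -0.86 for Irf7, 0.29 for Cldn3, 0.51 for Bmp4 and -0.61 for H2-K1, and from -1.34 to 0.51 for Ighm. Further probe sets of Fabp6, Krt18, Hk2, Spock2, Dnmt1 and some others were too dim to be tested.

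**Figure D4:**
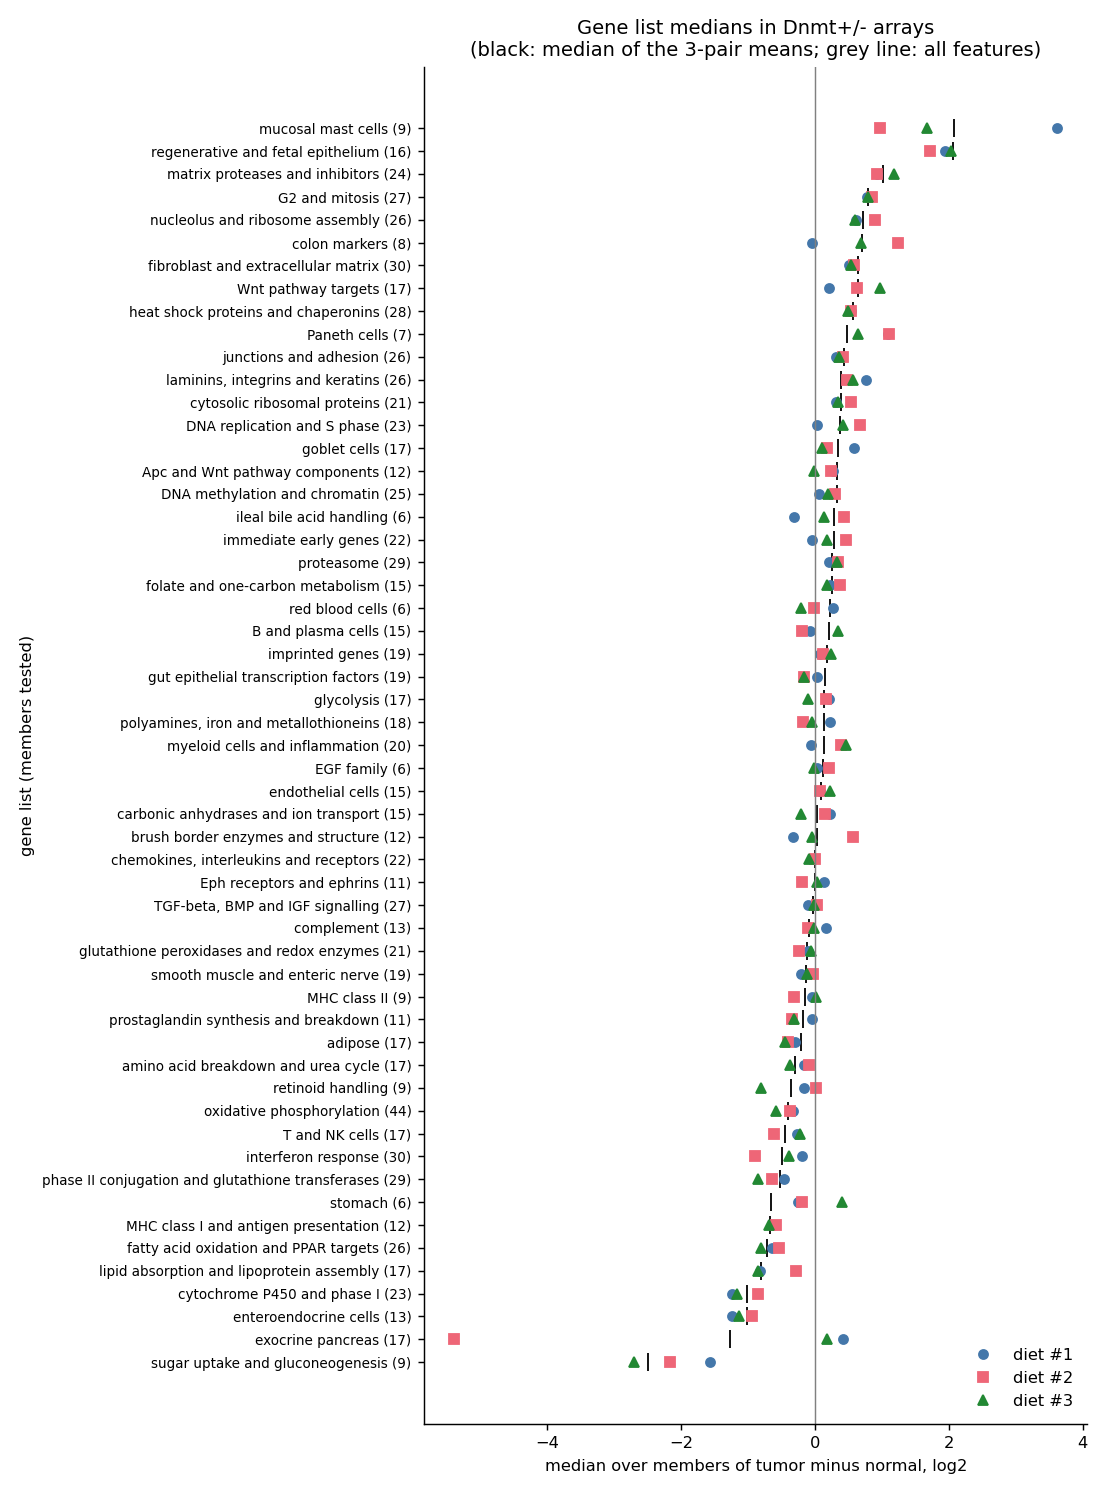
Median difference (log2 tumor minus normal) over the tested members of each gene list with at least 6 of them, on the Dnmt+/- arrays. Blue circles, red squares and green triangles are the medians in diets #1, #2 and #3, black ticks the median of the 3-pair means, and the grey line the median of all features. Mast cell and regenerative lists lie near 2, the sugar list at -2.49, and the pancreas list at -5.38 in diet #2 alone.

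The 3 pairs agreed in part. Over the 6401 features the differences of diets #2 and #3 correlated at 0.60 (Pearson), those of diets #1 and #3 at 0.50 and those of diets #1 and #2 at 0.36. Features are not independent replicates, and the diet #1 arrays share the file floor. Car1, a carbonic anhydrase abundant in colon, showed the clearest split. It read 48.9, 99.4 and 44.8 on normal arrays and 47.4, 5091 and 4039 on tumor arrays. Both diet #1 arrays were at a floor, and the other 2 pairs differed by 5.68 and 6.50, so Car1 did not pass (4.04 ± 1.42, limma adjusted p = 0.181). No Dnmt+/+ tumor was above the floor for Car1, and the genotypes' tissue differences differed by 4.15 ± 1.65 (limma adjusted p = 1). The 17 pancreas genes had medians of 0.41, -5.38 and 0.18 in diets #1, #2 and #3. Elastase (Cela1) and chymotrypsinogen (Ctrb1) differed by -4.53 and -5.86 in diet #2, and by 3.96 and 0.24 in diet #1. For Cela1 the diet #1 normal array was at the file floor.

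The last question was whether tumor differed from normal in another way than in Dnmt+/+ mice. Across features the 2 genotypes' differences correlated at 0.82 (Pearson), and at 0.47, 0.84 and 0.73 within diets #1, #2 and #3. The genotypes share no array, but each diet's arrays share its file format. The diet #2 normal arrays of both genotypes also carried the pancreas signal. Their pancreas sums were 166535 in Dnmt+/- and 177655 in Dnmt+/+, against 3892 and 4041 on the tumor arrays. The part of that signal in the correlations was not tested. Of the 153 features called in Dnmt+/-, 151 had the same sign in Dnmt+/+ and 119 were also called there, which is 77.8% of the 153 and 33.7% of the 353 Dnmt+/+ calls. With the spread shared, 492 were called in both, 56.7% of the Dnmt+/- and 76.6% of the Dnmt+/+ calls. A limma test of the difference between the 2 tissue differences called 0 of 6401 features (0%), with 191 at an unadjusted p under 0.05 and a smallest adjusted p of 1.

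**Figure D5:**
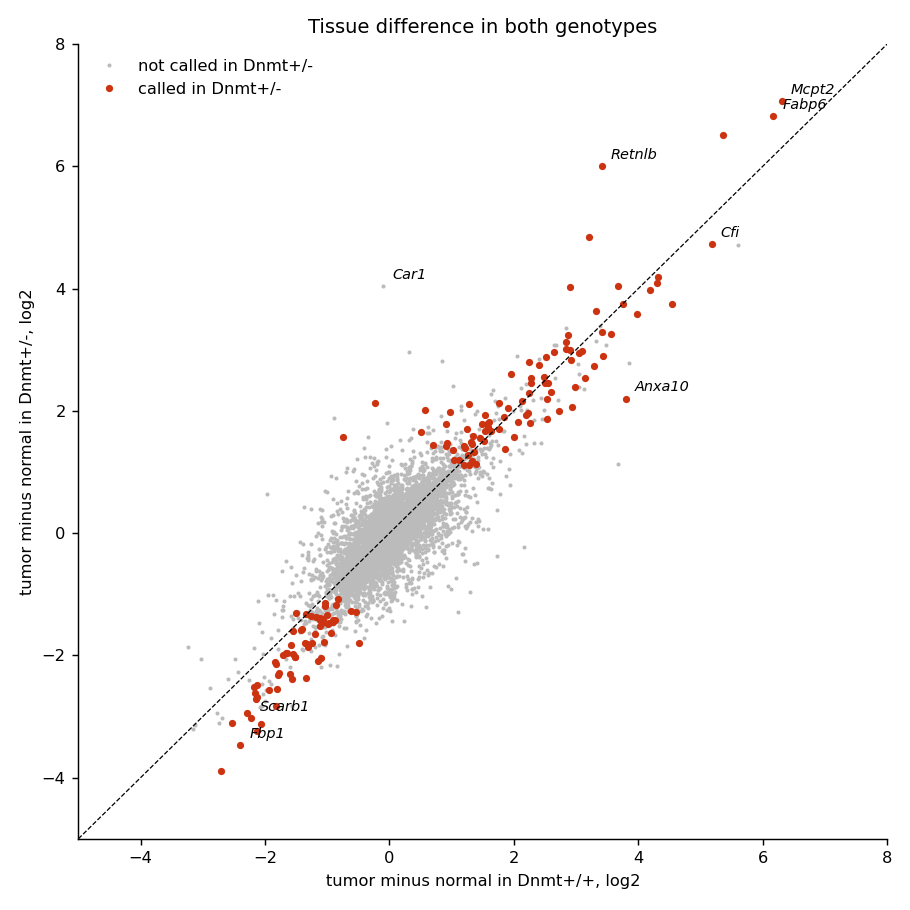
Tissue difference (log2 tumor minus normal) in Dnmt+/+ on the horizontal axis against that in Dnmt+/- on the vertical axis for 6401 features, with the 153 called in Dnmt+/- in red and the line of equal difference dashed. Red points follow the line, Retnlb lies above it, Anxa10 below it, and Car1 is near 0 in Dnmt+/+ and not called.

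The 10 named genes of smallest p in that test are given as values, since none passed. Retnlb was highest in the Dnmt+/- tumors, at 3038, 4011 and 2147 against 861, 330 and 381 in the Dnmt+/+ tumors of diets #1, #2 and #3. All 6 normal arrays were at a floor, and the tissue differences were 6.01 and 3.41, which differed by 2.60 ± 0.43 (limma adjusted p = 1). Anxa10, an annexin of stomach epithelium, ran the other way: it rose by 2.20 ± 0.20 in Dnmt+/- (limma adjusted p = 0.0318), with 2 normal arrays at a floor, and differed by 3.80 in Dnmt+/+ (limma adjusted p = 1 for the difference). Hspa1a differed by 1.66 in Dnmt+/- and by 0.51 in Dnmt+/+. Sprr1a, a cornified envelope protein induced in injured epithelium, differed by 1.13 and 3.67, with both diet #1 arrays of Dnmt+/- at a floor. Mx2, an interferon-induced GTPase, differed by -0.96 and 0.03 in Dnmt+/- and Dnmt+/+, Zmym4, a zinc finger protein, by 0.84 and 0.03, and Rtf2, a replication fork protein, by 0.37 and -0.40. Fam53a differed by -0.60 and 0.12, Gfra3, a receptor for a neurotrophic factor, by -0.25 and -0.92, and Rac2, a GTPase of blood cells, by 0.83 and -0.10. None of these 6 passed in Dnmt+/- alone. Outside those 10 genes, Scarb1 differed by -3.03 and -2.22. The 2 called features with opposite signs in Dnmt+/+ were Alb and Mgp. Alb, which encodes serum albumin, differed by 1.57 in Dnmt+/- with 2 normal arrays at a floor and by -0.75 in Dnmt+/+, where the diet #2 normal array, with a pancreas sum of 177655, read 1818. The part of that signal in the Alb value was not tested. Mgp, a matrix protein that binds calcium, differed by 2.13 and -0.24, with the Dnmt+/+ tumor of diet #1 at a floor. Neither passed with the spread shared (limma adjusted p = 0.283 and 0.116).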

How the data were processed

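The deposited values were intensities on a linear scale, 1 for each probe set and array, as the authors made them; what software condensed probes to probe sets was not given in the sources used here. Of 12488 probe sets, 66 controls were removed. The remaining 12422 were quantile normalized over all 12 arrays, raised to a floor at the 20th percentile and taken to log2, and the 40% with the lowest mean were dropped. The brightest probe set stood for each gene. The platform annotation gave 10833 probe sets 1 symbol, 396 several and 1193 none, and 10817 matched RefSeq. Tumor and normal were compared with limma 3.58.1 in R 4.3.3 on the 6 Dnmt+/- arrays, with diet number as a block and Benjamini-Hochberg adjustment at 0.05. The genotype comparison used all 12 arrays with 6 blocks.

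Diet numbers come from the labels. Deviations from the group means correlated at 0.68, 0.45 and 0.57 between the 2 Dnmt+/- arrays of diets #1, #2 and #3, and the block was kept. The file format of diet #1 is shared by both tissues and enters all 3 correlations through the group means. They are therefore no test of pairing by animal. A simulation changed 200 of 6401 features: the 6-array test recovered 22% at 2-fold and 88% at 4-fold, and 6.31% of its calls were false. The genotype test recovered 8% at 2-fold and 74% at 4-fold.

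The members and the 57 gene lists were chosen with earlier results of these data known, so counts and medians of a list are no test of it. Genes were named by these rules: the 15 largest increases and 15 largest decreases; the 6 largest differences with the lower tissue mostly at a floor; the first 2 measured members of each list and up to 3 that passed in each direction; Dnmt1, Dnmt3a, Dnmt3b and Apc; the 10 of smallest p between genotypes; and the 5 that passed with the widest span over diets. Alternatives were other scalings, floors and filters, every probe set, no block, shared or trended spread, and each pair left out. Promoter sequences are from RefSeq, build GRCm38.p6.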

Additional observations from a re-analysis of the deposited data

How the results depend on the processing

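The 153 calls kept their direction under every alternative in which they were tested, but their number moved with most choices. The direction could not change without the block, with shared or trended spread, or with a pair left out. Those choices leave the mean difference unchanged or average pairs that all moved the same way. Only other scalings and floors could have changed it. Counts higher and lower in tumor were 90 and 63 as reported, 176 and 315 with median scaling, and 234 and 143 on values as deposited, where the median feature shifted by -0.098 and 0.12. They were 224 and 195 with a floor at the 40th percentile, 274 and 272 with the lowest 60% removed, 314 and 281 with trended robust variances, and 436 and 432 with the spread shared with Dnmt+/+ pairs. With no filter on dim features, 0 and 0 of 9840 passed limma (smallest adjusted p = 0.0793, 1874 at an unadjusted p under 0.05). Without the diet block that pairs the arrays, 57 and 32 passed, and 85 of the 153 were among them. Leaving out 1 diet at a time gave 0 to 108 higher and 0 to 82 lower. With the shared spread, an alternative chosen after seeing the data, it gave 297 higher and 251 lower without diet #1, 26 and 12 without diet #2 and 0 and 0 without diet #3 (limma, smallest adjusted p = 0.0724, 1274 at an unadjusted p under 0.05). A floor at the 5th percentile, every probe set and normalization over the 6 Dnmt+/- arrays stayed within 1.5 times the reported counts. The genotype comparison called 0 features under each alternative run for it. Of the genes considered by name, 73 passed and 0 of them reversed. These 73 are among the 153 calls, so the same limit holds for them. Of the 113 that did not pass, 21 reversed, with the same values under shared spread. These were the Acta2 difference (-0.33 to 0.061 with 1 diet left out), the Actg2 difference (-0.059 with median scaling), the Cd74 difference (0.0035 with normalization over 6 arrays and -0.036 to 0.026 with 1 diet left out, including 0.0099 without diet #1), the Cdh1 difference (-0.038 to 0.17 with 1 diet left out), the Cela1 difference (-0.36 with median scaling and -0.14 with values as deposited and -0.10 with the higher floor and -1.61 to 2.63 with 1 diet left out, including -0.28 without diet #3), the Egfr difference (0.15 with values as deposited), the Fabp2 difference (-0.18 to 0.58 with 1 diet left out). Further ones were the Folr1 difference (-0.46 to 0.27 with 1 diet left out), the Gata2 difference (0.17 with values as deposited and 0.013 with the higher floor and -0.17 to 0.15 with 1 diet left out, including 0.020 without diet #1), the Hbb-b2 difference (-0.038 to 0.26 with 1 diet left out), the Hnf4a difference (-0.090 to 0.33 with 1 diet left out), the Krt20 difference (-0.092 with median scaling), the Ndufa2 difference (-0.20 to 0.083 with 1 diet left out), the Nr1h4 difference (0.082 with values as deposited and -0.12 to 0.059 with 1 diet left out). The others were the Odc1 difference (-0.0029 to 0.27 with 1 diet left out), the Psma1 difference (0.038 with values as deposited), the Ptges difference (-0.042 to 0.30 with 1 diet left out), the Rps4x difference (-0.10 with median scaling), the Tff2 difference (-2.47 to 1.97 with 1 diet left out), the Tff3 difference (-0.085 to 0.040 with 1 diet left out), the Tnp1 difference (-0.26 with median scaling and -0.044 with values as deposited and -0.050 with the higher floor and -0.33 to 0.64 with 1 diet left out). The cause of these changes was not tested. Values at the floors limit folds for dim genes.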
